A study of Mus musculus with 37 samples.

Results

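The genes described here encode the machinery of oxidative phosphorylation in mitochondria, with the assembly factors of complex I that carry the Ndufaf names. They were taken by symbol: names that start with Nduf, Uqcr or Atp5, Sdha to Sdhd, Cox followed by a digit from 4 to 8, Cyc1 and Cycs, with 1 row of the deposited table per gene (the row with the highest mean over all arrays). The rule took 86 of the 16489 genes that carry 1 symbol in the table. Grouped by symbol alone, 36 were set under complex I, Ndufa4 and Ndufa4l2 included, and 8 were complex I assembly factors. Complex II had 4, complex III 8 (Cyc1 included), cytochrome c itself 1 (Cycs), complex IV 16 and complex V 13. In each region 80 members passed a filter on low values and were tested, and the same 80 passed in both regions. The other 6, Ndufa7, Cox4i2, Cox6b2, Cox7a1, Cox7b2 and Cox8b, lay under the filter in both regions.

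Complexes I and II feed electrons from NADH and succinate into the quinone pool, complex III passes them to cytochrome c, and complex IV hands them to oxygen. Complexes I, III and IV pump protons, and complex V, the ATP synthase, lets them flow back to make ATP. In neurons this pathway supplies most of the ATP that ion pumping and synaptic transmission use, and all the subunits described here are encoded in the nucleus and imported into mitochondria.

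The animals were adult male C57BL/6J mice left undisturbed and taken in the morning. By their labels they overexpressed the glucocorticoid receptor in the forebrain (GRov), either during early life or over the whole lifetime, or were controls. Dentate gyrus (DG) and nucleus accumbens (NAcc) were laser-captured from 12 µm coronal sections of the same brains, and the RNA was amplified over 2 rounds before hybridization. DG had 6 early-life, 6 lifetime and 6 control arrays, and NAcc had 6 early-life, 7 lifetime and 6 control arrays, 37 in all. The 37 arrays came from 19 animals, 18 of which gave both regions. The labels name no promoter or driver line for the overexpression, no litter, no hybridization batch and no age in days, so what limits the model beyond forebrain overexpression is not given. Values are log2 signals, and "rose", "fell" and "passed" refer to an adjusted p under 0.05 over all 11301 features tested per region. In laser-captured tissue, fewer cells of a type and less RNA per cell cannot be told apart.

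Nr3c1, the glucocorticoid receptor gene, passed in none of the comparisons with control. Its log2 signal averaged 8.26 ± 0.16 and 8.36 ± 0.20 in early-life and lifetime DG, against 8.11 ± 0.13 in control DG (SD, n = 6 each). In NAcc it averaged 7.45 ± 0.34 and 7.75 ± 0.24, against 7.40 ± 0.14 in controls (n = 6, 7 and 6). The early-life and lifetime changes were +0.15 and +0.25 in DG and +0.04 and +0.35 in NAcc. Whether the probes of a member also read a processed pseudogene or a close paralogue could not be checked, since the table gives no probe sequences, and the Ndufs6 row is a non-coding transcript of that gene. The regions carried most of their defining markers: 10 of 11 granule cell markers were higher in DG in 18 of 18 animals. Of 10 tested medium spiny neuron markers, 9 were lower there at an adjusted p under 0.05. In that list Drd1 and Penk had log2 differences of −4.40 and −4.46, whereas Gad1 was at −0.44 and Bcl11b at +0.05 (higher in DG in 9 of 18 animals). The DG arrays differed in range between groups. Their interquartile range was 2.73 to 2.95 in early-life, 2.79 to 3.04 in lifetime and 2.64 to 2.75 in control arrays.

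Array 5 of the early-life NAcc group stood apart from every other array. Its median was 6.50, against 6.13 to 6.27 in the lifetime and 6.15 to 6.21 in the control NAcc arrays, and its interquartile range was 1.72, against 2.20 to 2.54 and 2.30 to 2.37. Counts of calls in NAcc and between regions, and the regional differences of members named below, are also given without this array or its animal.

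In DG, early-life overexpression changed a small and mixed set of members. Of 80 tested, 2 rose and 6 fell after early-life overexpression, that is 10% of the members against 11.4% of all features (at an unadjusted p under 0.05, 38.8% against 31.7%). Lifetime overexpression gave 9 rises and 2 falls, 13.8% of the members against 15.3% of all features (unadjusted, 35% against 33.1%). Both shares lay near those of the whole table, so these counts do not set the members apart. By direction, 6.17% of all features rose and 5.26% fell in the early-life group, and 8.88% rose and 6.45% fell in the lifetime group. The groups share their control arrays, so the comparisons are set side by side without any count of what they have in common.

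**Figure D1:**
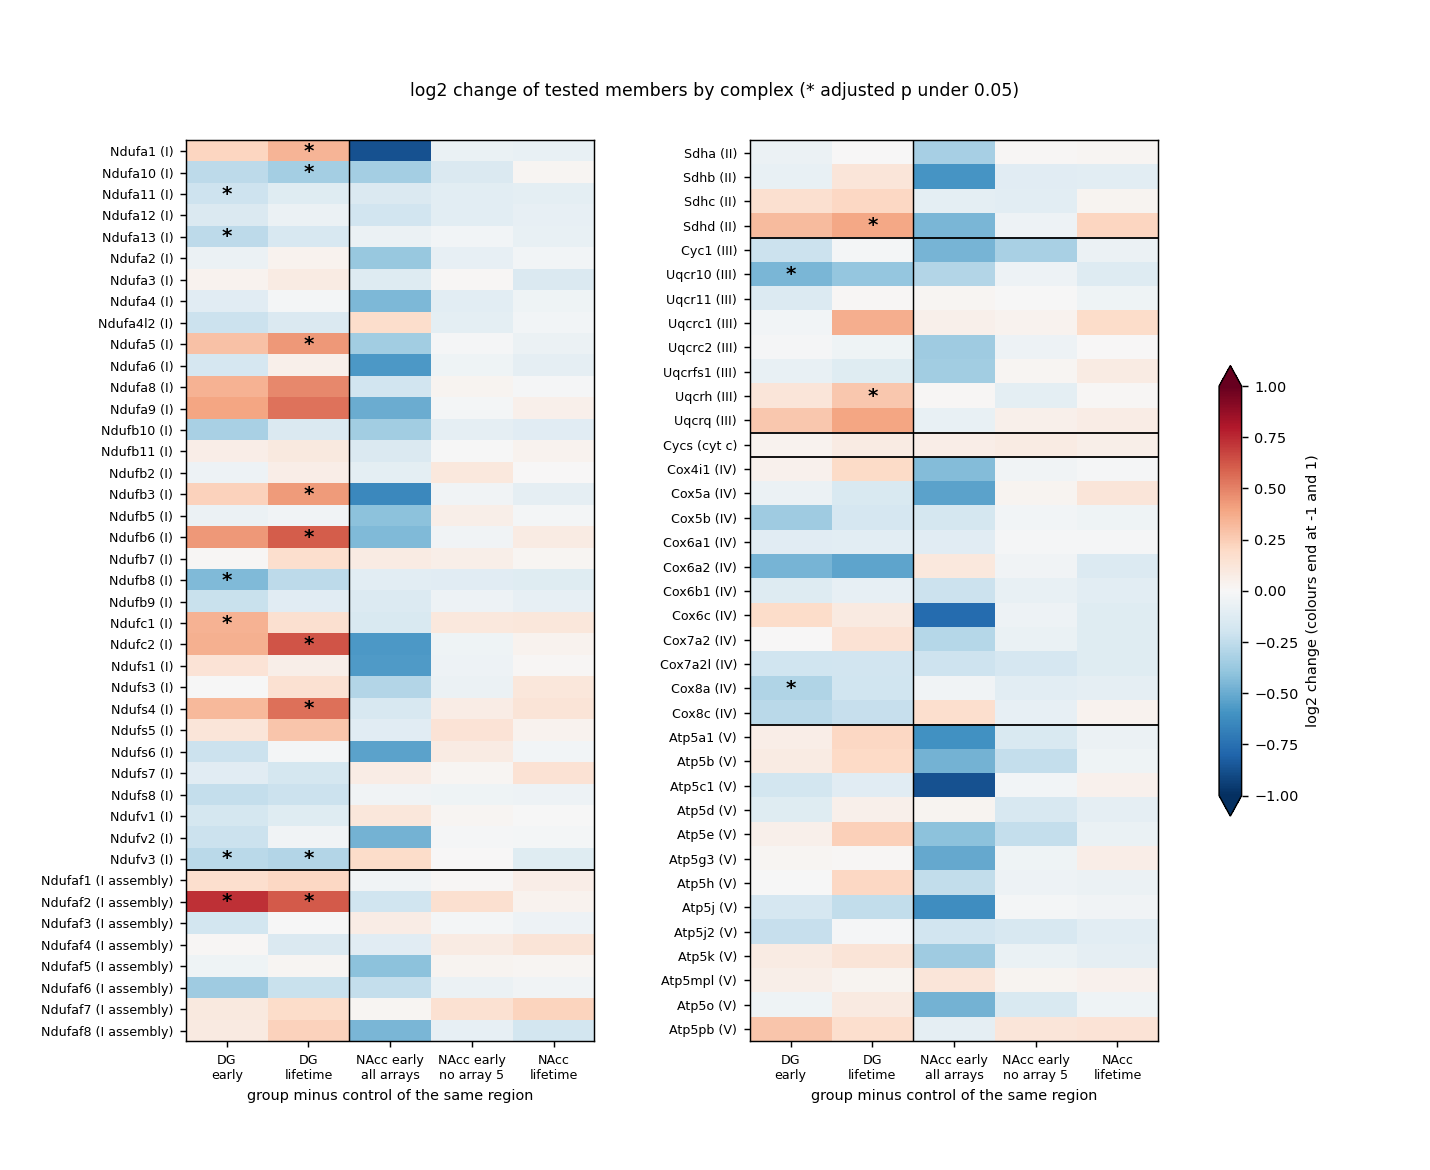
Heat map of the log2 change against the control group of the same region for tested members (rows, grouped by complex). Columns are DG early-life, DG lifetime, NAcc early-life with all arrays, NAcc early-life without array 5 and NAcc lifetime; colours end at -1 and 1, and a star marks an adjusted p under 0.05. Stars appear in the DG columns alone, 8 in early-life and 11 in lifetime, and the blue NAcc early-life column pales when array 5 is left out.

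Ndufaf2, an assembly factor that acts late in building complex I, had the largest change of any member in early-life DG. Its log2 signal was 8.20, 8.37, 8.52, 8.49, 8.13 and 8.29 in the early-life DG arrays, and 8.29, 8.31, 8.62, 7.60, 8.20 and 8.28 in the lifetime arrays. The control arrays had 7.58, 7.66, 7.42, 7.37, 8.12 and 7.47. All 6 early-life arrays lay above all 6 controls, but narrowly: the lowest early-life array had 8.13 and the highest control 8.12. Lifetime array 10, at 7.60, lay among the controls. The rise was 0.73 in the early-life group (SE 0.142, adjusted p = 0.00878, limma) and 0.62 in the lifetime group (SE 0.142, adjusted p = 0.00914, limma). Of the 8 assembly factors, no other one passed.

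Ndufv3, a small subunit of the NADH-oxidizing tip of complex I, fell in both groups. It had 12.94, 12.92, 12.69, 12.55, 12.79 and 12.89 in early-life arrays and 12.85, 12.91, 12.51, 12.68, 12.78 and 12.89 in lifetime arrays, against 13.16, 12.94, 12.99, 13.13, 13.16 and 13.02 in controls. Neither group overlapped the controls, by a margin under 0.01 in the early-life group (highest early-life array 12.937, lowest control 12.943). The changes were −0.27 (SE 0.082, adjusted p = 0.0407, limma) and −0.30 (SE 0.082, adjusted p = 0.0227, limma).

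The promoters of Ndufaf2 and Ndufv3, the members that passed in both DG comparisons against the same control arrays, are printed first. That of Ndufb8, the early-life fall that also passed with the animal as a block, follows. That of Sdhd, chosen because it carries both motifs known from respiratory genes, comes last. Each is a 300-base window around the annotated start from RefSeq (build GRCm38.p6), 5′ to 3′ on the strand of the gene, and capitals mark motif matches. Ndufaf2 lies on the minus strand at chr13:108158576-108158875, Ndufv3 on the plus strand at chr17:31519865-31520164, Ndufb8 on the minus strand at chr19:44555393-44555692 and Sdhd on the minus strand at chr9:50603800-50604099.
Ndufaf2: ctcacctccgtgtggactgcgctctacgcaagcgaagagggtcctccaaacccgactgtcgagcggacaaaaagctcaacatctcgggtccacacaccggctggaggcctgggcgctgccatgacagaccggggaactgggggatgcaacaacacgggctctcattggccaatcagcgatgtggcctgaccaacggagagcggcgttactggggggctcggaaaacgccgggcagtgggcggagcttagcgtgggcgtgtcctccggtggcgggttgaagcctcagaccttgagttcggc
Ndufv3: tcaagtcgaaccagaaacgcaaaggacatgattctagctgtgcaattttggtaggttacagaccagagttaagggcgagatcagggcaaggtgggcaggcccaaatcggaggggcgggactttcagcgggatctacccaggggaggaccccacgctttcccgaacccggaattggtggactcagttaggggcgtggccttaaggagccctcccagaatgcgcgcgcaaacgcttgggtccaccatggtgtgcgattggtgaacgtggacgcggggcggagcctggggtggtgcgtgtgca
Ndufb8: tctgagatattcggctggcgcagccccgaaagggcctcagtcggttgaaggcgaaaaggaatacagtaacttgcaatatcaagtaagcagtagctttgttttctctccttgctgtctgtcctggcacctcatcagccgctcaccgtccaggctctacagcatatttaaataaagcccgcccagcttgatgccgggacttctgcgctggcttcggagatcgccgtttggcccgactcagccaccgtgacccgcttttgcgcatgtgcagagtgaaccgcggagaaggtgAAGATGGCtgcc
Sdhd: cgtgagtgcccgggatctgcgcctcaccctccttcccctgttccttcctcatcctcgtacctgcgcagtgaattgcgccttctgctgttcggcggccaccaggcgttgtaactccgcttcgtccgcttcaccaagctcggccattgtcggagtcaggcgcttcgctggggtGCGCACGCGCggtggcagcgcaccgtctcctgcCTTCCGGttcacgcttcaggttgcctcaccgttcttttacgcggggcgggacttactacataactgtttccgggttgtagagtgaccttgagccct
Both strands were searched for the NRF1 motif (GCGCA, any base, GCGC) and the ETS core CCGGAAG, which bind nuclear respiratory factors, for the YY1 motif AANATGGC and for the palindrome of the glucocorticoid receptor (GNACA, any 3 bases, TGTNC). The Ndufaf2 and Ndufv3 windows held none of them, Ndufb8 held YY1 at bases 38 to 45 counted from the start, and Sdhd held NRF1 at −79 to −70 and ETS, on the other strand, at −46 to −40. Atp5h, Atp5k and Cox6a1, which did not pass in DG, also held both NRF1 and ETS. Of the 86 members, 69 had a promoter in the table, and 17 of these 69 genes (24.6%) held NRF1, 17 (24.6%) ETS and 18 (26.1%) YY1. Among all 32851 promoters of the table, 4.6% held NRF1, 8.86% ETS and 6.05% YY1. Counted in the same way, per promoter and not per gene, 24.3%, 23% and 24.3% of the 74 member promoters did. The YY1 matches lay in 12 of 31 complex I genes, 4 of 11 complex V genes and 2 of 7 assembly factors, and in none of 3, 5 and 11 genes of complexes II, III and IV. None of the 74 member promoters held the receptor palindrome, which 0.475% of all promoters held. Of the 8 early-life calls, 1 had an NRF1, 1 an ETS and 2 a YY1 match, and of the 11 lifetime calls 2 had NRF1, 3 ETS and 1 YY1. A match is a stretch of letters, and its presence or absence does not show binding.

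The other early-life changes in DG were 5 falls and 1 rise. Ndufb8, a membrane-arm subunit of complex I, had 12.68, 12.50, 12.49, 12.21, 12.45 and 12.67 in early-life arrays, against 12.90, 12.85, 12.96, 12.84, 13.16 and 12.91 in controls. No early-life array reached the lowest control, and the change was −0.44 (SE 0.089, adjusted p = 0.0111, limma). In the lifetime group the 6 values ran from 12.45 to 12.92, with a change of −0.26 that missed the threshold (adjusted p = 0.0529, limma).

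Ndufa13, also known as GRIM-19 and placed where the arms of complex I join, had 13.95, 13.90, 13.85, 13.72, 13.73 and 13.80 in early-life arrays, against 14.02, 14.03, 13.98, 14.10, 14.20 and 14.22 in controls. These groups did not overlap either (−0.26, SE 0.068, adjusted p = 0.0248, limma). Ndufa11, another membrane-arm subunit, averaged 8.46 ± 0.10 in early-life arrays and 8.67 ± 0.09 in controls, with an adjusted p of 0.0497 in limma, just inside the threshold (−0.21, SE 0.067). Early-life array 1, at 8.60, lay above the lowest control, 8.59, and the other 5 lay below it.

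In complex III the early-life fall was that of Uqcr10, a small accessory subunit. Its values were 11.21, 10.66, 10.89, 10.26, 10.68 and 10.92 in early-life arrays, against 11.21, 11.19, 11.31, 11.25, 11.01 and 11.39 in controls (−0.46, SE 0.136, adjusted p = 0.0377, limma). Early-life array 1 lay inside the control range and array 4 was the lowest.

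In complex IV it was Cox8a, the widely expressed isoform of the smallest subunit, which averaged 9.88 ± 0.14 in early-life arrays and 10.18 ± 0.13 in controls (−0.30, SE 0.079, adjusted p = 0.0270, limma). Early-life array 2, at 10.13, alone lay inside the control range. Ndufc1, a small subunit of the membrane arm of complex I, rose: it averaged 10.03 ± 0.23 in early-life arrays and 9.68 ± 0.16 in controls (+0.35, SE 0.104, adjusted p = 0.0388, limma). Early-life array 5, at 9.70, lay inside the control range of 9.50 to 9.87. No member of complex II, complex V or cytochrome c passed in this group.

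Of the 9 lifetime rises in DG, 6 were subunits of complex I, which has 35 of the 80 tested members. Ndufc2, of the membrane arm, had 12.14, 11.95, 12.11, 11.45, 11.99 and 11.85 in lifetime arrays, against 11.29, 11.18, 11.14, 11.25, 11.64 and 11.25 in controls. Array 10, at 11.45, was the lowest lifetime array and control 18, at 11.64, the highest control, and the groups overlapped through these 2 arrays. The rise was 0.63 (SE 0.144, adjusted p = 0.00889, limma). The early-life arrays had 11.10, 11.95, 11.90, 11.97, 11.49 and 11.46, a change of +0.36 that did not pass (adjusted p = 0.1, limma).

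Ndufb6, also of the membrane arm, had 12.31, 12.14, 12.19, 11.54, 12.23 and 12.08 in lifetime arrays, against 11.57, 11.14, 11.42, 11.18, 12.17 and 11.40 in controls (+0.60, SE 0.160, adjusted p = 0.0183, limma). Lifetime array 10 was again low and control 18 again high. Ndufs4, a peripheral-arm subunit whose loss causes Leigh syndrome in people and a similar encephalopathy in mice, had 9.32, 9.36, 9.55, 8.81, 9.55 and 9.12 in lifetime arrays. Its controls had 8.57, 8.40, 8.75, 8.78, 9.19 and 8.70 (+0.55, SE 0.160, adjusted p = 0.0270, limma).

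Ndufa5, of the peripheral arm, averaged 12.07 ± 0.28 in lifetime arrays and 11.64 ± 0.24 in controls, and 5 of 6 lifetime arrays lay above the control mean (+0.43, adjusted p = 0.0310, limma). Ndufb3, of the membrane arm, averaged 11.22 ± 0.19 and 10.80 ± 0.17 (+0.42, adjusted p = 0.0218, limma). Ndufa1, a small subunit that assembly of the membrane arm needs, averaged 13.42 ± 0.16 in lifetime arrays and 13.08 ± 0.12 in controls (+0.34, adjusted p = 0.0289, limma). For these 6 rising subunits of complex I, lifetime array 10 was the lowest of the lifetime arrays each time.

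Outside complex I, Sdhd and Uqcrh rose in the lifetime group. Sdhd, which anchors complex II in the membrane, had 10.08, 9.89, 10.11, 10.04, 10.05 and 9.96 in lifetime arrays, against 9.40, 9.45, 9.92, 9.55, 9.63 and 9.88 in controls (+0.38, SE 0.120, adjusted p = 0.0380, limma). Lifetime arrays spread little (SD 0.08), and 1 control, at 9.92, lay above the lowest of them. Uqcrh, the hinge protein of complex III that helps cytochrome c dock, averaged 9.23 ± 0.15 in lifetime arrays and 8.96 ± 0.14 in controls (+0.27, adjusted p = 0.0466, limma). The fall besides Ndufv3 was that of Ndufa10, a membrane-arm subunit related to nucleoside kinases. It averaged 11.05 ± 0.08 in lifetime arrays and 11.39 ± 0.20 in controls (−0.34, SE 0.112, adjusted p = 0.0445, limma).

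**Figure D2:**
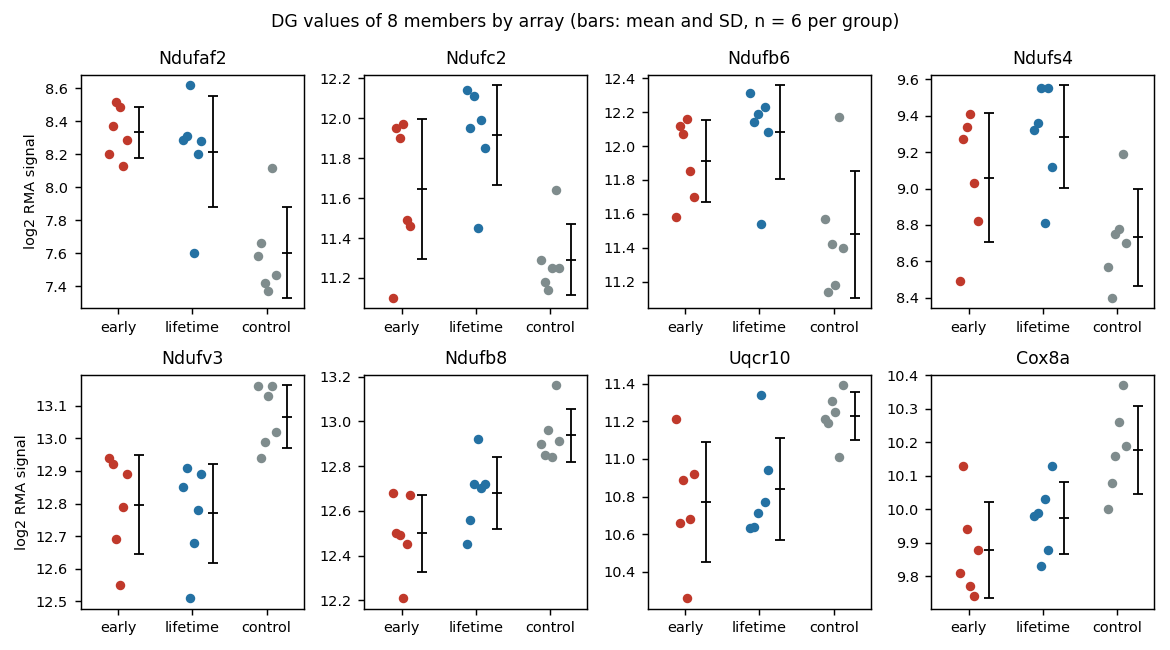
Log2 signal in each DG array for Ndufaf2, Ndufc2, Ndufb6, Ndufs4, Ndufv3, Ndufb8, Uqcr10 and Cox8a, with early-life, lifetime and control arrays from left to right and bars for mean and SD (n = 6 each). Ndufaf2, Ndufv3 and Ndufb8 separate the early-life arrays from the controls, Ndufaf2 and Ndufv3 by narrow margins. In Ndufaf2, Ndufc2, Ndufb6 and Ndufs4 the lowest lifetime point is array 10 and the highest control is array 18.

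The core subunits of the peripheral arm of complex I hold the electron path to the quinone, and those named here did not pass in either DG comparison. Ndufs8 was at −0.24 and −0.22 (adjusted p = 0.0765 and 0.0951, limma) in the early-life and lifetime groups. Ndufs1, Ndufs3, Ndufs7, Ndufv1 and Ndufv2 had adjusted p values from 0.0729 to 0.996. The catalytic flavoprotein Sdha of complex II was at −0.06 and 0.00, and the iron-sulfur subunit Sdhb at −0.08 and +0.12.

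The core proteins and redox subunits of complex III did not pass. Uqcrc1 stood at +0.36 against control in the lifetime group and −0.03 in the early-life group. Its values were 9.65, 9.51, 9.63, 8.86, 9.81 and 9.45 in lifetime arrays and 8.71, 9.32, 9.22, 9.10, 9.22 and 9.03 in early-life arrays. The difference between these groups was +0.39 (SE 0.148, adjusted p = 0.318, limma). Cytochrome c was at +0.04 and +0.08.

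In complex IV, Cox6a2, the isoform known from heart and skeletal muscle, had the lowest change of its complex, −0.53 in the lifetime group (SE 0.222, adjusted p = 0.106, limma). Control array 15, at 10.23, stood above the other controls, which ran from 8.64 to 9.19. The catalytic subunits Atp5a1 and Atp5b of complex V were at +0.07 and +0.09 in the early-life group and +0.21 and +0.20 in the lifetime group, none of which passed (adjusted p from 0.147 to 0.689, limma).

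Whole complexes moved little in DG. The median change over the tested members was −0.04 in the early-life group and +0.04 in the lifetime group, against −0.01 and 0.00 over all features. Complex IV had the lowest medians, −0.13 and −0.15, and 3 of its 11 tested members lay above 0 in each group. Complex V had medians of +0.02 and +0.09, with 10 of 13 members above 0 in the lifetime group. Between the overexpressing groups no member passed, against 1.37% of all features, and at an unadjusted p under 0.05 8 of 80 did (10%, against 9.69%). In lifetime DG 64 of 80 members were higher than in early-life DG (median +0.10, against +0.01 over all features). That median was +0.11 for cytosolic ribosomal proteins, +0.10 for glycolytic genes and +0.05 for mitochondrial ribosomal proteins, so such a shift was not particular to the members. The shares of all features above 0 are not given, so counts by sign do not set the members apart.

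Per array, the median deviation of complex IV from the control mean ran from −0.33 to −0.09 in early-life arrays and from −0.26 to −0.04 in lifetime arrays, against −0.08 to 0.09 in controls. The early-life arrays lay below the controls without overlap and the lifetime arrays overlapped them. For complex V, the medians ran from −0.20 to 0.11 in early-life arrays, 0.05 to 0.15 in lifetime arrays and −0.11 to 0.11 in controls. For complex I they ran from −0.13 to 0.03, −0.05 to 0.12 and −0.10 to 0.17, and early-life arrays 1 and 5 alone lay below the lowest control. These medians are descriptions without a test.

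**Figure D3:**
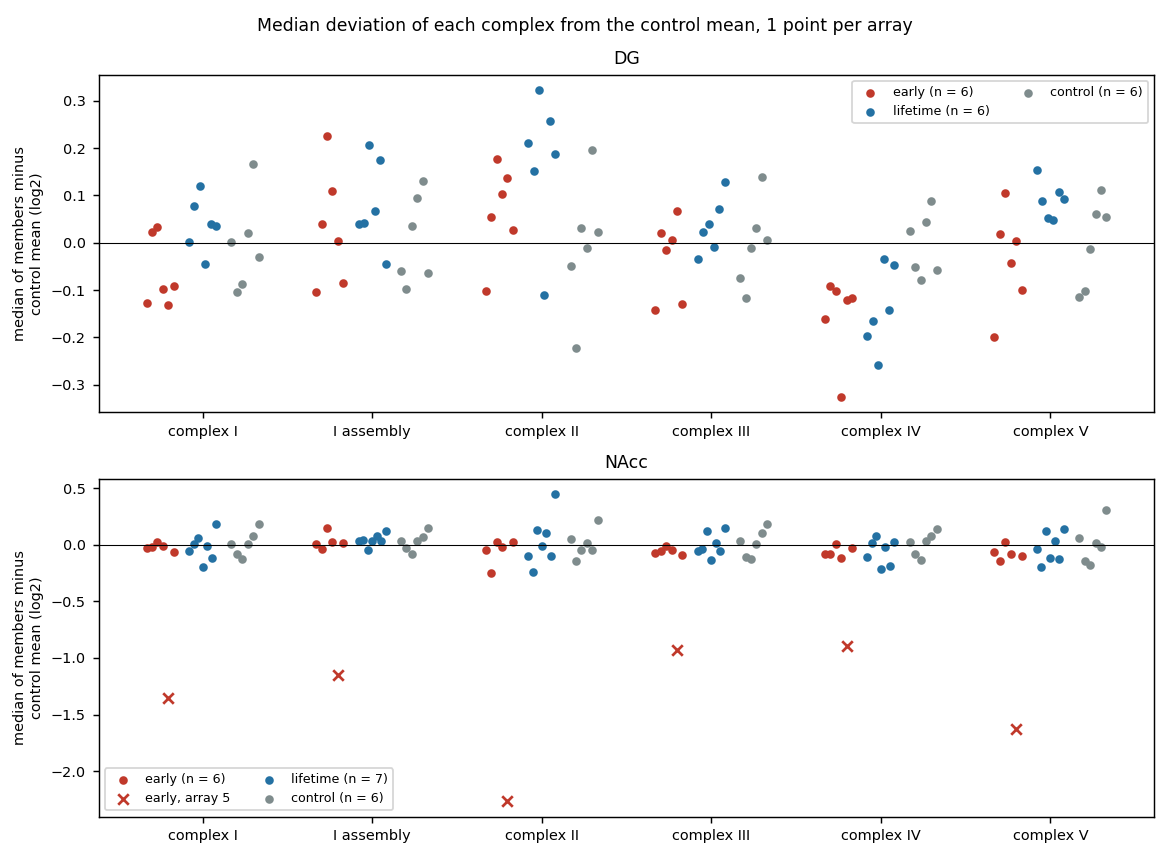
Median deviation of each complex from the control mean (log2) on every array, DG and NAcc in separate panels, with early-life, lifetime and control arrays from left to right; array 5 of the early-life NAcc group is a cross. Complex IV of early-life DG lies below 0 on all 6 arrays, and the cross lies far below all other NAcc points for every complex, from -0.89 for complex IV to -2.27 for complex II.

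The DG calls depended on how the arrays were modelled. With that interquartile range added to the model as a covariate no member passed in either group, and 0.00885% of all features passed in the early-life and 0.655% in the lifetime comparison. Ndufaf2 was then at +0.59 (SE 0.176, adjusted p = 0.287, limma) and +0.46 (SE 0.187, adjusted p = 0.351, limma). The early-life change of Ndufb8 was then −0.39 (SE 0.111, adjusted p = 0.287, limma). The range was wider in both overexpressing groups than in controls, and its part in the changes was not tested further.

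Another fit took both regions together, on arrays centred on their medians, with the animal as a random block. There 1 member passed in the early-life comparison, Ndufb8 (−0.38, adjusted p = 0.008, limma), and none in the lifetime one. These were 1.25% and 0% of the members, against 5.48% and 9.28% of all features. That fit shares 1 variance with the NAcc arrays. Leaving array 5 out of it, a setting chosen after the data were seen, gave 14 members in the early-life comparison (8 rose, 6 fell, 17.5% against 18.8% of all features). In the lifetime comparison it gave 18 (15 rose, 3 fell, 22.5% against 23.5%). Of the 8 and 11 members named above, 6 and 10 passed there. Ndufv3 and Ndufa11 did not in the early-life group (adjusted p = 0.0929 and 0.125, limma), nor did Ndufa10 in the lifetime group (0.0658). Centring alone, with DG fitted by itself and no block, kept 4 of the 8 and 10 of the 11. The parts of centring and block were not told apart further.

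Single DG arrays also decided several calls. Without any one array the early-life count ran from 2 to 17: it was 2 without early-life array 3 or 4 and 17 without early-life array 1. The lifetime count ran from 3 to 22: it was 3 without lifetime array 9, 4 without array 7, 5 without array 11, 22 without lifetime array 10 and 17 without control 18. Ndufaf2 and Ndufb8 passed in all 18 early-life fits of this kind, and Ndufaf2, Ndufb6 and Ndufc2 in all 18 lifetime fits. Ndufa11 passed in 5 of 18, Uqcrh in 6 and Ndufa10 in 7. The share of all features in these fits is not given, so these swings do not set the members apart.

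Markers of some cell types also differed between the DG groups. Granule cell markers had a mean log2 level of 9.92 to 10.42 in early-life, 9.84 to 10.33 in lifetime and 9.52 to 10.33 in control arrays, and 5 and 4 of 11 rose (45.5% and 36.4%, against 6.17% and 8.88% of all features). Microglial markers ran from 6.71 to 7.23, 6.69 to 7.08 and 7.03 to 7.22, and 1 and 2 of 5 tested fell (20% and 40%, against 5.26% and 6.45%), among them Tyrobp (−0.70 and −0.56, adjusted p = 0.0114 and 0.0161, limma). Interneuron markers ran from 8.47 to 8.97, 8.74 to 9.53 and 8.47 to 9.43, and 2 and 0 of 7 fell (28.6% and 0%). The microglial levels average 8 genes, of which 5 were tested. None of 8 astrocyte and 5 endothelial markers passed in either group. Of 7 oligodendrocyte markers 0 and 1 fell (0% and 14.3%), and of 10 medium spiny neuron markers 1 and 2 rose (10% and 20%). The part of cell types in the member changes was not tested.

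In NAcc no member passed in either comparison with control, and nor did any other feature (0% in each). Between lifetime and early-life NAcc 0.00885% of all features passed, none of them a member, and at an unadjusted p under 0.05 1 member did (1.25%, against 5.29%). Without array 5 it was 2 members (2.5%, against 4.36%). With all arrays, 15 of 80 members lay above control in the early-life group, and the median change was −0.23, against +0.01 over all features. The share of all features above control is not given. The medians were −0.41 in complex V, −0.39 in complex II, −0.21 in complex IV, −0.20 in complex I, −0.19 in complex III and −0.16 in the assembly factors. Without array 5 they were −0.06, −0.08, −0.05, −0.03, −0.03 and +0.02, and the median over all members was −0.04.

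At an unadjusted p under 0.05, 3 of 80 members (3.75%, against 4.92% of all features) differed from control in the early-life group with all arrays, and 3 of 80 without array 5 (against 8.65%). In lifetime NAcc the median change of the members was −0.03. None differed at an unadjusted p under 0.05 with all arrays (against 3.67% of all features), and 5 of 80 without array 5 (6.25%, against 10.6%). Without array 5 still no member passed in either comparison with control, against 0% and 0.0442% of all features.

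Array 5 itself was low for most of the pathway. It had the lowest value of all 19 NAcc arrays for 61 of 80 members (76.2%), against 38.1% of all features, and the highest for 10 (12.5%), against 37.6%. Those shares of all features were not matched to the members by signal level, and the range of this array was narrow. By complex it was the lowest array for 28 of 35 subunits of complex I, 7 of 8 assembly factors, 3 of 4 subunits of complex II, 5 of 8 of complex III, 8 of 11 of complex IV and 10 of 13 of complex V. The largest gap was that of Atp5c1, the rotating gamma subunit of the ATP synthase, with 8.17 on array 5 and 13.26 ± 0.18 on the other early-life arrays (SD, n = 5). Ndufa1 had 8.48 on array 5 against 13.33 ± 0.15, and Cox6c, a small subunit of complex IV, had 7.84 against a mean of 12.12.

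Not every member was low on array 5. Cytochrome c had 7.02 there and a mean of 7.11 on the other early-life arrays, Uqcrc1 8.19 and 8.09, and Sdhc, the partner of Sdhd in the membrane anchor, 8.32 and 8.26. Cox6a2 was highest on array 5, with 8.25 against 7.25 to 7.57 on the other early-life arrays. Of the members under the filter, Cox4i2, Cox6b2, Cox7a1, Cox7b2 and Cox8b were also highest on array 5, and Ndufa7 was lowest. Cox7b2 had 6.46 there against a mean of 4.85 on the other early-life arrays. The median of array 5 minus the other early-life arrays was −1.27 over the members and 0.00 over all features. It was −1.65 for the 16 tested genes of the TCA cycle and pyruvate dehydrogenase, −1.37 for 12 medium spiny neuron markers, −0.92 for cytosolic ribosomal proteins, −0.42 for glycolysis and +0.46 for microglial markers. The mean level of the medium spiny neuron markers was 8.72 on array 5, against 9.77 to 10.33 in controls. The source of the low values was not tested.

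**Figure D4:**
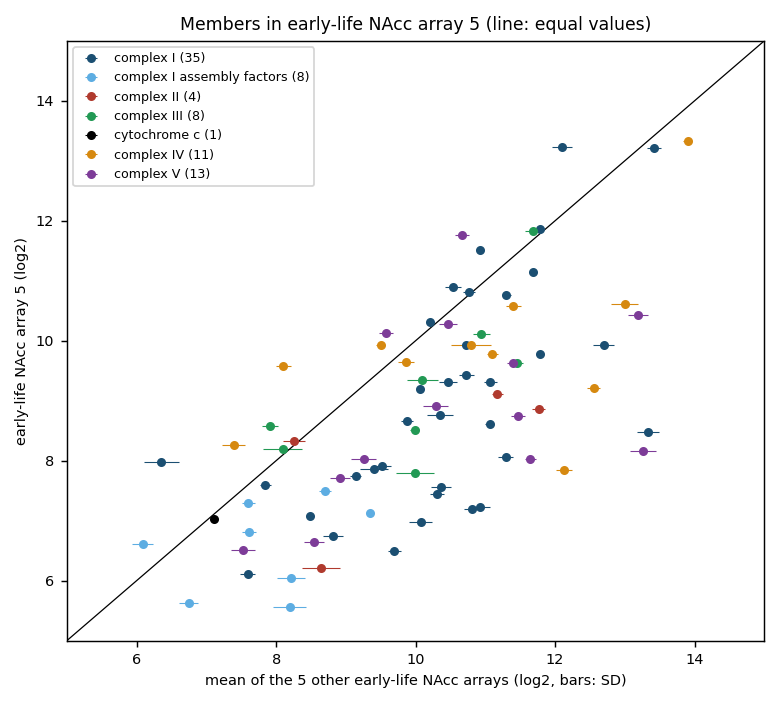
Log2 signal of each tested member on array 5 of the early-life NAcc group (vertical axis) against its mean on the other 5 early-life NAcc arrays (horizontal axis), coloured by complex, with the line of equal values and horizontal bars for the SD of those 5 arrays. Most points lie below the line, the farthest being Atp5c1 (8.17 against 13.26) and Ndufa1 (8.48 against 13.33), and cytochrome c lies close to it.

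The array inflated the error of the NAcc tests. The median residual SD of the members in NAcc was 0.367 with all arrays and 0.151 without array 5, against 0.235 and 0.157 over all features; in DG it was 0.161. Atp5c1 was at −0.88 (SE 0.629) in early-life NAcc with all arrays and −0.03 (SE 0.097) without array 5. Sdhb was at −0.59 (SE 0.360) and −0.11 (SE 0.071), and Cox5a, a subunit of complex IV, at −0.53 (SE 0.415) and +0.02 (SE 0.081). In lifetime NAcc these genes were at +0.05, −0.11 and +0.12 with all arrays.

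Cyc1, the haem-bearing cytochrome c1 of complex III, was the member nearest to the threshold in NAcc. Its values were 10.82, 11.06, 11.04, 10.81, 10.11 and 10.99 in early-life arrays, 11.20, 11.39, 11.20, 11.12, 11.13, 11.16 and 11.29 in lifetime arrays, and 11.22, 11.19, 11.31, 11.30, 11.37 and 11.22 in controls. All 6 early-life arrays lay below all lifetime and control arrays, array 5 lowest. The change was −0.46 (SE 0.122, adjusted p = 0.645, limma) with all arrays and −0.33 (SE 0.067, adjusted p = 0.0955, limma) without array 5. It passed with array weights, which give less weight to a deviating array (−0.34, SE 0.058, adjusted p = 0.00569, limma). In early-life DG the change of Cyc1 was −0.21 (adjusted p = 0.134, limma).

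Between regions, in 18 animals with both and with each array centred on its own median, 42 of 80 members differed (52.5%, against 70.7% of all features): 20 were higher and 22 lower in DG than in NAcc, that is 25% and 27.5% of the members against 38.1% and 32.6% of all features. At an unadjusted p under 0.05, 44 differed (55%, against 72.6%). Without animal 5, which gave array 5, 58 differed (72.5%, against 79.0%), 21 higher and 37 lower (40.2% and 38.9% of all features), and 59 at an unadjusted p under 0.05 (73.8%, against 80%). In control animals alone 46 differed (57.5%, against 66.1%). Of these, 14 were higher and 32 lower, 17.5% and 40% of the members against 31.7% and 34.4% of all features. On the deposited scale without centring the median of all features was 0.70 higher in DG. There 67 members were higher and none lower (83.8% and 0%, against 84.5% and 5.24% of all features). The directions below are therefore relative to the array median.

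The largest excesses in DG were those of Atp5e and Ndufaf3. Atp5e, the epsilon subunit of the ATP synthase, had a centred log2 signal of 2.60 ± 0.17 in DG and 1.40 ± 0.43 in NAcc (SD, n = 18), and Ndufaf3, an assembly factor of the peripheral arm, had 1.08 ± 0.18 and −0.08 ± 0.18. Both were higher in DG in 18 of 18 animals. The differences were +1.20 (SE 0.097) and +1.17 (SE 0.061, adjusted p = 1.08e-12, limma), and +1.13 and +1.20 without animal 5. Cox6a2 was higher in DG by 0.71 (17 of 18 animals; 0.78 without animal 5), Cox5a by 0.62 (18 of 18; 0.41 without animal 5) and Uqcrc1 and Uqcrh of complex III by 0.47 and 0.44 (0.46 and 0.45).

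Sdhb, Ndufa12 and Uqcr11 were lower in DG. Sdhb had 4.62 ± 0.15 in DG and 5.44 ± 0.78 in NAcc, and was lower in DG in 17 of 18 animals, 1 lying above (−0.82, SE 0.169, adjusted p = 0.00024, limma). Without animal 5 the difference was −0.99 with an SE of 0.049. Ndufa12, a peripheral-arm subunit and a relative of Ndufaf2, was at −0.70 (SE 0.056; −0.74 without animal 5) and Uqcr11, a small subunit of complex III, at −0.56 (SE 0.044; −0.56 without it). Ndufaf2 was at −0.59 (−0.73 without animal 5) and Ndufaf7, a methyltransferase that modifies a core subunit during assembly, at −0.63 (−0.69). Cox4i1, the main isoform of the regulatory subunit 4 of complex IV, was at −0.54 (−0.70 without animal 5).

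Subunits of the same complex thus went opposite ways between regions relative to the array median. In complex II, Sdhd was higher in DG by 0.62 (17 of 18 animals; 0.45 without animal 5), whereas Sdhb was lower by the amount above. Sdha was at −0.12 with all animals and −0.25 (SE 0.044) without animal 5. In complex I, 9 tested members were higher and 8 lower, in complex III 3 and 1, in complex IV 2 and 5, in complex V 3 and 2, and among the assembly factors 1 and 4. Without animal 5 these counts were 10 and 14, 3 and 2, 2 and 6, 3 and 7, and 1 and 5. Of all features, 38.1% were higher and 32.6% lower with all animals, and 40.2% and 38.9% without animal 5. Atp5c1 had opposite signs with and without that animal: it was at +0.19 (SE 0.281) with it and −0.11 (SE 0.044, adjusted p = 0.0263, limma) without it.

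The core subunits of the peripheral arm of complex I that are named here were split between the regions. Ndufs3, Ndufs7 and Ndufs8 were higher in DG, by 0.319, 0.326 and 0.265 (0.220, 0.324 and 0.255 without animal 5), whereas Ndufs1 and Ndufv1 were lower, at −0.478 and −0.212 (−0.675 and −0.191). Of the accessory subunits, Ndufb2 and Ndufb11 of the membrane arm and Ndufa2 of the peripheral arm were higher in DG by 0.424, 0.347 and 0.338 (0.356, 0.281 and 0.225 without animal 5). Ndufa8 and Ndufa9, which sits near the quinone site, were lower, at −0.557 and −0.501 (−0.646 and −0.683). So was Ndufa4l2, set under complex I by its symbol alone, at −0.584 (−0.513). The assembly factors Ndufaf6 and Ndufaf8 were lower too, at −0.344 and −0.301 (−0.423 and −0.431).

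In complexes II and III, Sdhc was lower in DG, at −0.216 (−0.249 without animal 5), and Uqcr10 higher by 0.401 (0.315). Cytochrome c was higher by 0.175 (0.149). The complex IV subunits Cox8c, Cox5b, Cox7a2 and Cox8a were lower, at −0.347, −0.264, −0.236 and −0.208 (−0.272, −0.329, −0.328 and −0.191). In the ATP synthase, Atp5h and Atp5pb of the peripheral stalk were higher in DG by 0.407 and 0.348 (0.322 and 0.240), and Atp5d of the central stalk and Atp5j2 of the membrane part were lower, at −0.282 and −0.158 (−0.248 and −0.191). All of these passed with and without animal 5, but some calls hung on other single animals. Leaving out 1 animal at a time, Cox7a2 passed in 6 of 18 fits, Atp5pb in 10 and Cox5b in 15. Of the members in the paragraph before, Ndufs1 passed in 6 of 18, Ndufaf8 in 1 and Ndufa9 in 11. Ndufv2, Ndufa4, Cyc1, Uqcrc2, Uqcrfs1, Cox7a2l, Cox6a1, Cox6b1, Atp5a1, Atp5b and Atp5g3 did not pass with all animals and ran from −0.188 to 0.187. Without animal 5, Atp5a1 and Atp5b passed, at −0.380 and −0.190 (adjusted p = 7.23e-06 and 0.0167, limma).

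**Figure D5:**
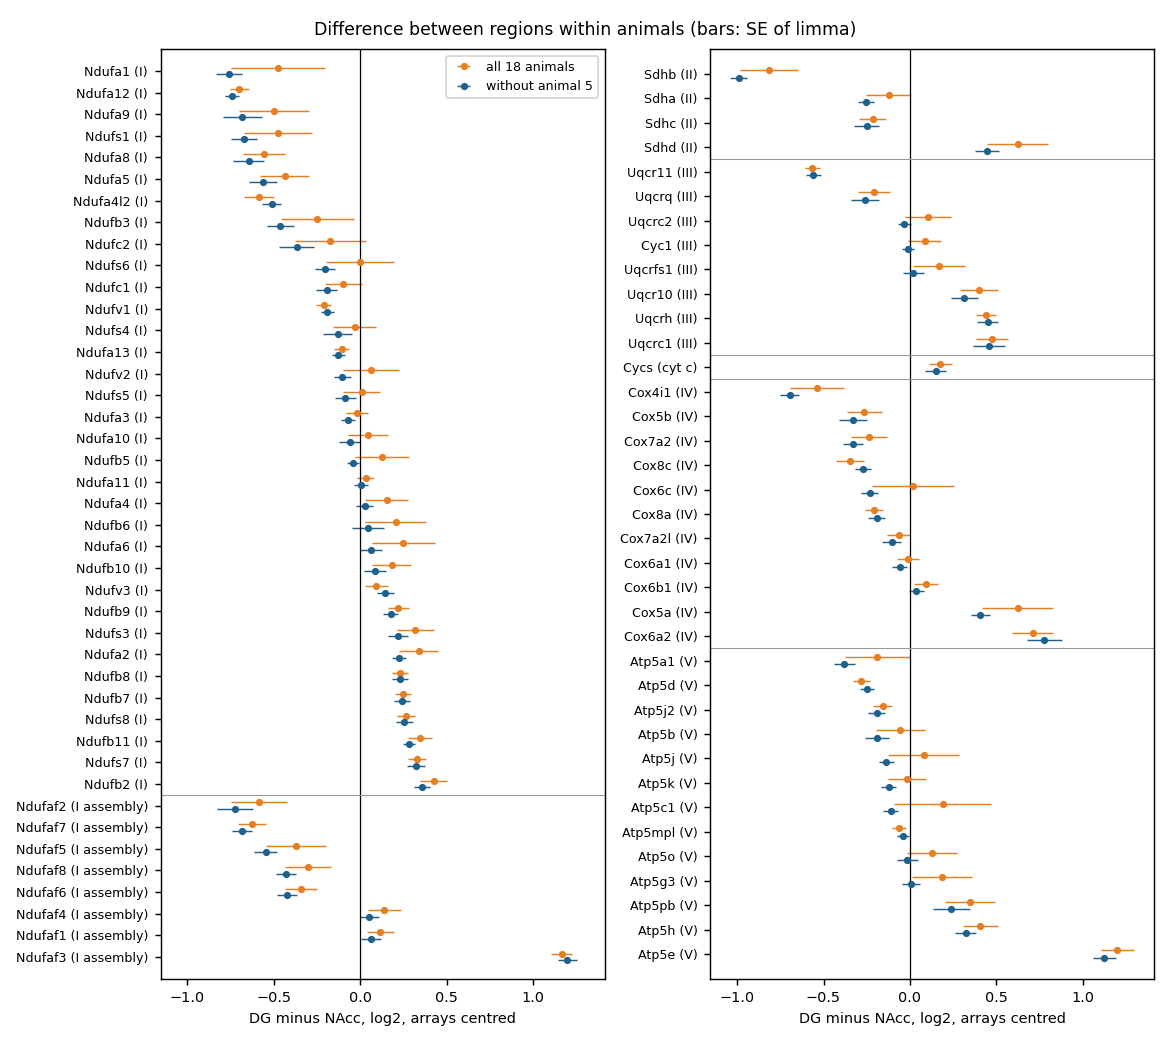
Difference between DG and NAcc (log2, arrays centred on their medians, DG minus NAcc) for tested members by complex, with limma SE bars, for all 18 animals and without animal 5. Ndufaf3 and Atp5e lie farthest to the right, Sdhb lies farthest to the left in complex II, and the bars of many members shorten without animal 5.

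The change by overexpression was not shown to differ between the regions for any member. The difference of the change, DG minus NAcc within each animal, passed for 0 of 80 members in the early-life comparison (against 0% of all features) and 0 in the lifetime comparison (against 0.406%, 0.261% in the direction of a more positive change in DG). At an unadjusted p under 0.05, 14 members (17.5%, against 19.5%) and 5 members (6.25%, against 10.8%) differed. Without animal 5 it was 17 members (21.2%, against 18.2%) and 23 members (28.7%, against 21.6%), so the lifetime share lay below that of all features with this animal and above it without. Without animal 5, none passed after adjustment in the early-life comparison (against 0.281%), and Ndufaf8, an assembly factor that works with Ndufaf5, passed in the lifetime comparison (+0.42, SE 0.092, adjusted p = 0.0198, limma), where 3.01% of all features did.

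Genes that work beside the respiratory chain were read from the same DG fits. Their shares are set beside the 11.4% and 15.3% of all features that passed in the early-life and lifetime groups. With the array range as a covariate only 0.00885% and 0.655% of all features passed, so these calls depend on the model as those of the members do. Which genes of these lists passed there is not given. Of 17 tested genes of the TCA cycle and pyruvate dehydrogenase, 3 rose and 1 fell in the early-life group (23.5%) and 2 rose and 1 fell in the lifetime group (17.6%). Dlst, a subunit of 2-oxoglutarate dehydrogenase, was among the rises of both (+0.43 and +0.49, adjusted p = 0.0231 and 0.00718, limma), and malate dehydrogenase Mdh2 fell in the early-life group (−0.33, adjusted p = 0.0114, limma). Of 32 other assembly factors, 2 rose in the early-life group (6.25%), the complex I factor Acad9 (+0.38) and the copper chaperone Cox17 (+0.35). In the lifetime group 3 rose and 1 fell (12.5%), with rises of Lrpprc, which stabilizes mitochondrial mRNAs (+0.69), and Coa3, a complex IV assembly factor (+0.48).

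Of 10 regulators of mitochondrial biogenesis, 1 passed in the early-life group (10%) and 2 in the lifetime group (20%). Polrmt, the mitochondrial RNA polymerase, fell in both groups (−0.38 and −0.31, adjusted p = 0.0191 and 0.0276, limma), and the coactivator Ppargc1b rose in the lifetime group (+0.30). Of 72 mitochondrial ribosomal proteins, 3 rose and 9 fell in the early-life group (16.7%) and 7 rose and 8 fell in the lifetime group (20.8%). Of 11 glycolytic genes, lactate dehydrogenase Ldhb (−0.37) and the isomerase Gpi1 (−0.28) fell in the early-life group, and in the lifetime group hexokinase Hk1 rose (+0.29, adjusted p = 0.0427, limma) and Gpi1 fell (−0.27, adjusted p = 0.0463, limma), 18.2% in each. Of 42 proteasome genes, 5 and 8 rose and none fell (11.9% and 19%, against 6.17% and 8.88% of all features that rose). Of 29 cytosolic ribosomal proteins 2 and 5 rose and 2 and 0 fell (13.8% and 17.2%). Of 10 tested genes of mitochondrial carriers and import, 0 and 1 rose and none fell (0% and 10%). In NAcc no gene of these lists passed.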

How the data were processed

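The deposited table holds log2 signals, 1 per RefSeq accession. The authors used RMA, as the submitters' processing notes list it; the probe grouping, version and array type are not given in the sources used here. Accessions with equal values on all arrays were counted once (24142 accessions, 18835 features). Symbols came from a RefSeq table of GRCm38.p6 (20920 accessions matched, 1 row per member, 12 of 98 fitting protein-coding symbols without a row). The members and lists were chosen with earlier results of these data known. Each region was fitted with limma 3.58.1 in R 4.3.3, 3 groups sharing 1 variance per feature, after a filter on mean signal at the 40th percentile (cuts of 6.34 for DG and 5.77 for NAcc), with Benjamini-Hochberg adjustment over 11301 features and a threshold of 0.05, two-sided. SE is that of limma and SD the spread between arrays, whose number limits the precision. Regions were compared with the animal as a fixed block on median-centred arrays, over 10334 features. The pairing comes from the series' design text, by which each animal gave both areas, with equal array numbers taken as 1 animal; deviations of equal-numbered arrays correlated at −0.2 to 0.482. Named were all called members (over 30 calls, the 5 largest each way per complex), fixed core subunits and isoforms (in part, where not called), and up to 2 changed genes per context list; the NAcc genes shown for array 5 by its gap and Ndufaf8 were chosen after their values were seen. 1 gene that this rule takes is not reported here, although the counts of members include it. The fit was tested on simulated data.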

Additional observations from a re-analysis of the deposited data

Results flagged for a closer look

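In 93 groups of arrays examined (complex medians, and the 17 members that passed in DG), 13 held an array far from the others, by the gap to its neighbour over the range of the group. The critical values are those at which chance flags about 1 group in 20, and these groups share arrays. Array 5 of the early-life NAcc group was lowest for the median deviation from control of all members (−1.29), complex I (−1.35), the complex I assembly factors (−1.15), complex II (−2.27), complex III (−0.93), complex IV (−0.89) and complex V (−1.63). In early-life DG, array 4 was lowest for complex IV, at −0.33. Lifetime DG array 10 was lowest for Ndufa5 (11.51), Ndufb6 (11.54) and Uqcrh (8.95), and control DG array 18 was highest for Ndufb8 (13.16) and Ndufc2 (11.64).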

How the results depend on the processing

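In DG, the early-life count of 8 (2 rises, 6 falls) was 13 after a further quantile normalization (1 rise, 12 falls), 0 with the array range as a covariate (12 members at an unadjusted p under 0.05), 18 with array weights (8 and 10), 1 with the replicate block, 14 with the block and NAcc array 5 left out (chosen after the data were seen) and 6 with centred arrays (4 and 2). The lifetime count of 11 (9 and 2) was 0 with the covariate, 27 with array weights (18 and 9), 0 with the replicate block and 18 with the block and NAcc array 5 left out; quantile normalization gave 15 (8 and 7). The fit without a filter and the average over rows stayed within 1.5 times in both. The block was fitted on centred arrays, where 5.48% and 9.28% of all features passed, or 18.8% and 23.5% with array 5 left out. Centring alone gave 12.5% and 16.5%. Shares of all features are not given for quantile normalization, array weights or single arrays left out, so those counts do not set the members apart. Without 1 array at a time the counts ran from 2 to 17 (early-life) and 3 to 22 (lifetime). Lifetime minus early-life gave 0 to 1: 1 with array weights and without lifetime array 10, Uqcrc1 both times. In NAcc, array weights gave 1 call, Cyc1, in early-life minus control and 1 in lifetime minus early-life (+0.25, adjusted p = 0.0343, limma); leaving out 1 array gave 0 in each comparison. The block changed no other call count. The regional count of 42 ran from 37 to 58 without 1 animal. It was 43 without the block and 49 without a filter, where all 86 members were tested. Shares of all features are not given for these fits, except without animal 5, so the counts do not set the members apart. The count was 67 on the deposited scale. There the sign of these differences (DG minus NAcc) turned: Cox8c 0.313, Ndufaf6 0.316, Ndufa4l2 0.076, Ndufaf8 0.359, Ndufaf2 0.074, Cox7a2l 0.595, Ndufs1 0.182, Atp5a1 0.472, Cox6a1 0.651, Cox8a 0.452, Cox4i1 0.123, Cox5b 0.396, Cox7a2 0.423, Atp5b 0.605, Atp5j2 0.502, Sdha 0.537, Atp5d 0.378, Sdhc 0.444, Ndufa9 0.159, Uqcr11 0.096, Ndufa8 0.103, Ndufaf7 0.033 and Ndufv1 0.448, by the 0.66 that centring takes from each difference. Cox6a1 was at 0.265 after quantile normalization over all arrays, and Atp5c1 ran from −0.111 without animal 5 to 0.218 without another animal. The difference of change kept 0 calls without the block, and without 1 animal ran to 1. Beyond the array left out and the uncentred scale, the causes were not tested.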
